A study of Bos taurus and Bos frontalis with 6 samples.

Results

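The data below cover 7 protein genes of the mitochondrial genome in longissimus dorsi muscle, the long muscle of the back. They are ND1, ND4, CYTB, COX1, COX2, COX3 and ATP6, and were taken as the 7 Ensembl cattle identifiers set for this gene group, out of 27270 in the deposited count table. The rule lists identifiers and holds no threshold on a measured value. The symbols come with that definition, since the table itself carries identifiers only. All 7 symbols stand among the 13 protein genes of the mitochondrial genome in the RefSeq gene table of the cattle assembly ARS-UCD2.0.

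Muscle of Banna cattle (Bos taurus) was compared with muscle of Gayal (Bos frontalis), with 3 libraries of each, numbered 1 to 3 as in the labels. Animals of both groups were 3.5 ± 0.5 years old, and no treatment is labelled. The sample sheet gives Banna 1, Banna 2 and Gayal 1 the batch letter A and Banna 3, Gayal 2 and Gayal 3 the letter B, without saying what the letter stands for. It also classes every Banna library as coarse and every Gayal library as fine in fibre, so that fibre class and species cannot be told apart. Labels name separate samples but not their animals, so p-values measure the spread between these samples.

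The mitochondrial genome is a small circular DNA that every cell carries in many copies. Its protein genes encode core subunits of the respiratory chain, which passes electrons from food to oxygen and pumps protons, and of the ATP synthase that uses the proton gradient. The genes are read as long precursor RNAs, which are then cut into single messengers, in most places at the transfer RNAs that lie between them. All 7 genes described here are read from the same strand. Slow, oxidative muscle fibres hold more mitochondria than fast, glycolytic ones.

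Library totals ran from 53979857 to 90313051 estimated counts, and 15097 to 16317 identifiers were above 0. Small counts clustered at multiples of 3.31 to 3.33 in batch A and of 4 in batch B, called the step of the library here, so the values are estimates rather than single reads. A share of all counts is free of this step, which multiplies numerator and total alike. Reads of both species were aligned to the cattle build ARS-UCD1.2, and reads from nuclear copies of mitochondrial sequence could have been divided between copies. How this bears on the Gayal values was not tested. The labelled muscle could not be checked against its markers, because 0 identifiers of the table matched the reference table.

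On average, the 7 genes together took up less of Gayal than of Banna libraries, and less of batch B than of batch A. Their summed share of all counts was 5.03% in Banna 1, 4.07% in Banna 2 and 0.57% in Banna 3. It was 0.906% in Gayal 1, 0.216% in Gayal 2 and 0.306% in Gayal 3. Banna 1 and Banna 2 thus stood above the other 4 libraries, and the species overlapped because Banna 3 lay below Gayal 1. Banna libraries averaged 3.22 ± 2.35% and Gayal libraries 0.476 ± 0.375% (SD, n = 3), a ratio of 6.77 with a two-sided exact permutation p of 0.2. By batch the mean was 0.364 ± 0.184% in B and 3.34 ± 2.16% in A (SD, n = 3). The batches did not overlap, at a ratio of 9.16 and a two-sided exact permutation p of 0.1, the smallest that 3 libraries against 3 can give. Neither ratio nor test takes account of the other factor. Batch A holds 2 Banna libraries and 1 Gayal library, and batch B holds 1 Banna library and 2 Gayal libraries.

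**Figure D1:**
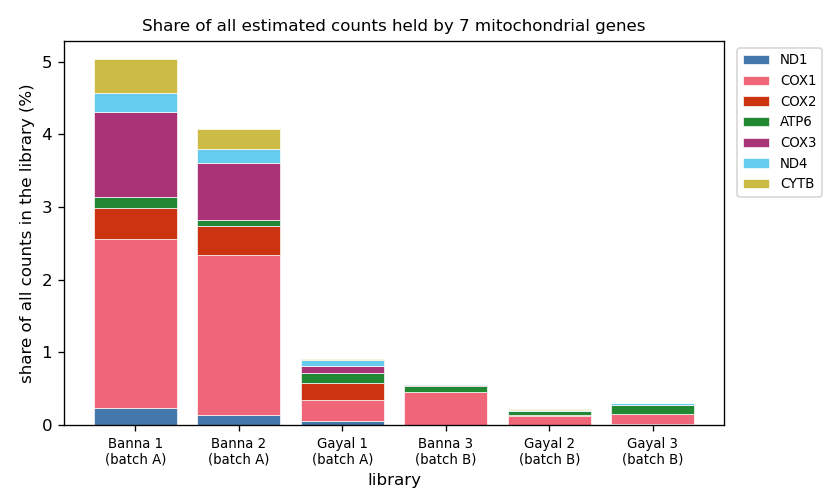
Stacked bars give the share of all estimated counts (%) held by each of the 7 genes in each library, with the 3 batch A libraries on the left. Banna 1 and Banna 2 reach 5.03% and 4.07%, and the other 4 libraries stay at or below 0.906%.

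Within each batch the Gayal libraries were lower than the Banna libraries, and within each species the batch B libraries were lower. In batch A the summed share was 0.906% in the 1 Gayal library and 4.55% on average in the 2 Banna libraries. In batch B it was 0.261% on average in 2 Gayal libraries and 0.57% in 1 Banna library. These cells hold 1 or 2 libraries each and were not tested on their own. Whether the lower shares come from the tissue, from batch or from alignment and counting was not tested. In bulk tissue, fewer mitochondria-rich fibres and less mitochondrial RNA per fibre cannot be told apart either.

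COX1 (ENSBTAG00000043561) encodes the catalytic subunit of complex IV, cytochrome c oxidase, where electrons reach oxygen. It held the most counts of the 7 genes in every library, with no correction for gene length. Its share of all counts was 2.32% in Banna 1, 2.2% in Banna 2 and 0.446% in Banna 3, against 0.288%, 0.125% and 0.135% in Gayal 1, 2 and 3. Every Gayal library was thus below every Banna library, and COX1 was the only one of the 7 genes to separate the species in this way. COX1 was also the only one on counts scaled to a common library size. On that scale 5.82% of the 14112 tested genes did so in that direction. It ranked 7th and 6th among all genes in Banna 1 and Banna 2, and between 33rd and 85th in the other 4 libraries.

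COX2 (ENSBTAG00000043556) encodes the subunit that takes electrons from cytochrome c. Its counts were 382889 in Banna 1, 346575 in Banna 2 and 125148 in Gayal 1, all of batch A. They were 3881 in Banna 3, 1091 in Gayal 2 and 2197 in Gayal 3, all of batch B. All 3 libraries of batch A thus lay far above those of batch B. As a share of all counts, COX2 was at 0.353 ± 0.106% in batch A and 0.00289 ± 0.00145% in batch B (SD, n = 3), a ratio of 122.

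COX3 (ENSBTAG00000043560) encodes the third core subunit of complex IV. Its counts were 1048023, 684441 and 8083 in Banna 1, 2 and 3, and 50303, 53 and 90 in Gayal 1, 2 and 3. In Banna 1 it was the 12th most abundant gene, whereas in Gayal 2 and Gayal 3 it ranked 10893rd and 10469th. The 53 counts of Gayal 2 came to 13 steps. On counts divided by the step, the share in Banna 1 was 17516 times that in Gayal 2 (95% exact Poisson interval 10243 to 32897, which takes in counting error alone). Because the values are estimates, a low level of the RNA and a failed estimate of the gene cannot be told apart in this table, for COX3 here or for CYTB below.

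CYTB (ENSBTAG00000043550) encodes cytochrome b, the subunit of complex III that the mitochondrial genome supplies. Its counts were 414288 in Banna 1 and 238120 in Banna 2, but 4 in Banna 3, which is a single step. In Gayal 1, 2 and 3 they were 10000, 6626 and 5178. Banna libraries therefore held both the highest and the lowest values of this gene, and the 3 Gayal libraries lay close together between them. The single step in Banna 3 has a 95% exact Poisson interval of 0.0253 to 5.57 steps, for counting error only. All other genes of the group had 920 steps or more in that library.

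ND1 (ENSBTAG00000043558) and ND4 (ENSBTAG00000043577) encode membrane subunits of complex I, the entry point for electrons from NADH. ND1 was at 0.236%, 0.143% and 0.00407% of all counts in Banna 1, 2 and 3, and at 0.051%, 0.00407% and 0.0103% in Gayal 1, 2 and 3. Its 3 lowest shares were those of batch B, with Banna 3 and Gayal 2 alike. ND4 was at 0.262%, 0.189% and 0.0232% in Banna 1, 2 and 3, and at 0.0749%, 0.015% and 0.0311% in Gayal 1, 2 and 3. For ND4, too, all batch B libraries were below all batch A libraries, and within batch B the Banna library lay between the 2 Gayal libraries.

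ATP6 (ENSBTAG00000043584) encodes the membrane subunit through which protons pass in the ATP synthase. Its counts were 129588, 71895 and 75454 in Banna 1, 2 and 3, and 79762, 47937 and 88986 in Gayal 1, 2 and 3. Between the highest and the lowest library its share of all counts differed 2.39-fold, against 17.5-fold for ND4, 18.5-fold for COX1, 57.8-fold for ND1 and 305-fold for COX2. ATP6 thus varied the least of the 7 genes over the 6 libraries. The share of ATP6 averaged 0.104 ± 0.0358% over Banna and 0.11 ± 0.0439% over Gayal libraries (SD, n = 3), with an exact permutation p of 0.9, two-sided. In batch B it was 0.0884 ± 0.0295% and in batch A 0.125 ± 0.0369% (SD, n = 3; exact permutation p = 0.3, two-sided).

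**Figure D2:**
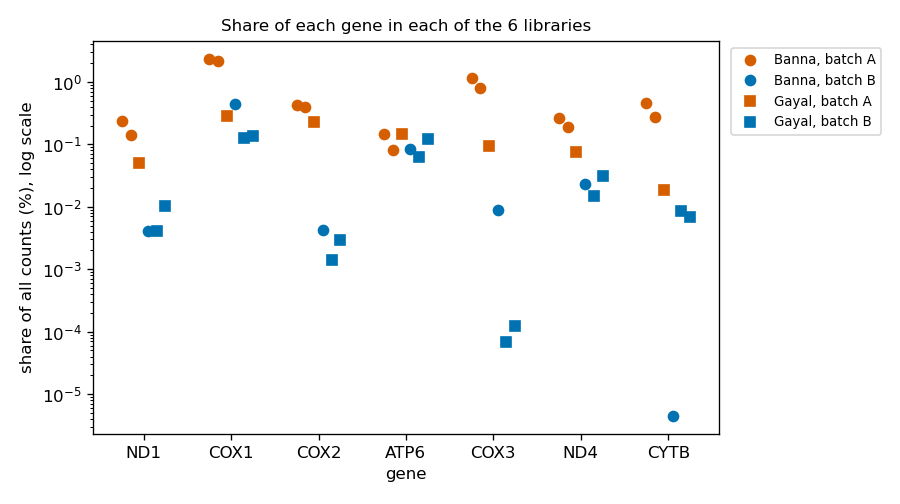
Points give the share of all counts (%, log scale) of each gene in each library, as circles for Banna and squares for Gayal, in orange for batch A and blue for batch B. The blue points lie below the orange ones for ND1, COX2, COX3, ND4 and CYTB, while all points of ATP6 lie between 0.0617% and 0.148%.

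ATP6 and COX3 are direct neighbours: in the RefSeq table no transfer RNA gene separates them, unlike most protein genes of this genome. Their counts nevertheless went apart. COX3 had 8.09 times the counts of ATP6 in Banna 1 and 9.52 times in Banna 2, and 0.631 times in Gayal 1. The ratio was 0.107 in Banna 3. In Gayal 2 and Gayal 3 it was 0.00111 and 0.00101, so that ATP6 had 904 and 989 times the counts of COX3. A ratio within a library is free of its depth and step, and it is not corrected for the lengths of the genes, so only its change between libraries is read here.

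**Figure D3:**
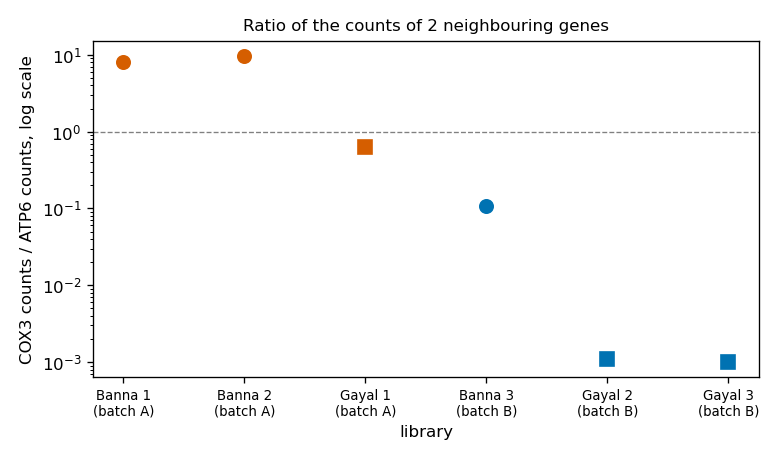
Each point is the ratio of COX3 to ATP6 counts in 1 library (log scale; circles Banna, squares Gayal; orange batch A, blue batch B; the dashed line marks equal counts). The ratio is 8.09 and 9.52 in Banna 1 and Banna 2 and near 0.001 in Gayal 2 and Gayal 3.

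The ratio of COX2 to COX1 and that of ND4 to ND1 also separated the batches. COX2 had 0.184 and 0.181 times the counts of COX1 in Banna 1 and Banna 2 and 0.804 times in Gayal 1. In batch B the ratio was 0.00963 in Banna 3, 0.0112 in Gayal 2 and 0.022 in Gayal 3, below every batch A library. ND4 had between 1.11 and 1.47 times the counts of ND1 in batch A and between 3.01 and 5.68 times in batch B. Within complex I, the balance of counts thus lay further towards ND4 in batch B. CYTB against ND1 did not follow the batch: the ratio was 1.97, 1.91 and 0.363 in Banna 1, Banna 2 and Gayal 1, and 0.00109, 2.09 and 0.676 in Banna 3, Gayal 2 and Gayal 3.

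The make-up of the summed counts also differed between libraries. COX1 made up 31.8% of the counts of the 7 genes in Gayal 1 and 78.3% in Banna 3, its lowest and highest values. COX3 was second in Banna 1 and Banna 2, at 23.3% and 19.3%, and COX2 was second in Gayal 1 at 25.6%. In all 3 batch B libraries ATP6 was second, at 14.6% in Banna 3, 28.5% in Gayal 2 and 39.2% in Gayal 3. The 3 complex IV subunits together made up 78% to 83.1% of the sum in the Banna libraries and 45% to 67.7% in the Gayal libraries.

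**Figure D4:**
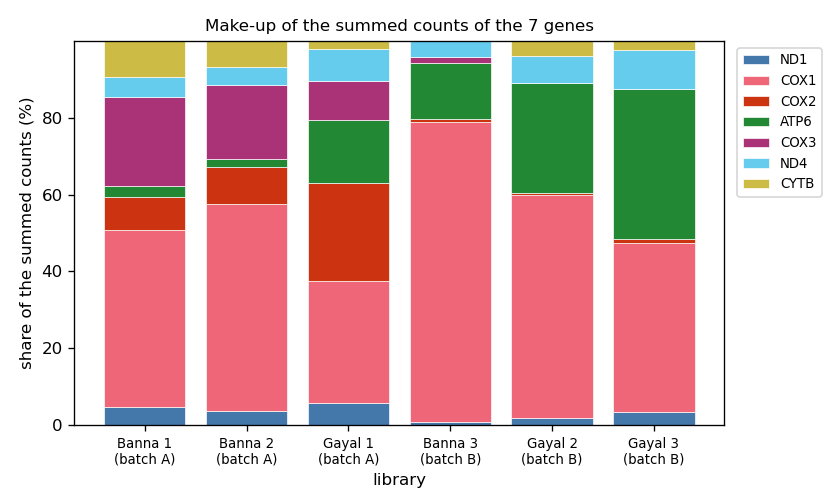
Stacked bars divide the summed counts of the 7 genes into the share of each (%), per library. COX2 and COX3 are visible in the 3 batch A libraries, and COX1 with ATP6 fills most of each batch B bar. CYTB holds 9.21% and 6.71% in Banna 1 and Banna 2 and at most 3.94% in the other libraries.

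Of the 14 tests of these shares within the sum, 7 genes by species and by batch, 5 had groups that did not overlap, and none passed after adjustment. ATP6 made up 28 ± 11.4% of the sum over Gayal libraries and 6.52 ± 7.05% over Banna libraries, and ND4 8.45 ± 1.63% and 4.64 ± 0.578% (SD, n = 3). Both were higher in every Gayal library, each with a two-sided exact permutation p of 0.1, 0.28 after Benjamini-Hochberg adjustment over the 14 tests. ND1, COX2 and COX3 made up less of the sum in every batch B library, at the same p and adjusted p in the two-sided exact permutation test. COX2 was at 0.79 ± 0.162% in batch B and 14.6 ± 9.52% in batch A (SD, n = 3), and COX3 at 0.547 ± 0.885% and 17.6 ± 6.66%. This test cannot pass a threshold of 0.05 with 3 libraries against 3, and by species it takes no account of batch. Shares within a sum also depend on each other, so a gene can make up more of it where the other genes are lower. As a share of all counts, ATP6 was at 0.104% over Banna and 0.11% over Gayal libraries.

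By species, none of the 7 genes passed. All 7 were among the 14112 genes left by the filter on low counts, and edgeR was fitted to the whole table with species and batch as terms, at an adjusted p under 0.05. Of these 7, 0 were higher and 0 lower in Gayal, where 0.0425% of the tested genes were called higher and 0% lower. At an unadjusted p under 0.05 in edgeR there were 1123 of the 14112 tested genes and 3 of the 7, COX1, COX2 and COX3, or 2 of the 7 when scaled by library totals. DESeq2 and limma-voom with the same terms also called 0 of the 7. The median log2 difference was -0.94 over the 7 genes and -0.03 over all tested genes.

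The 3 complex IV genes had the 3 smallest p by species. The level of COX1, in CPM (counts scaled to a common library size with edgeR's TMM factors), averaged 17456 ± 11600 over Banna and 1762 ± 876 over Gayal libraries (SD, n = 3). The fitted log2 difference of COX1 was -2.49 (SE 0.498, edgeR adjusted p = 0.301). COX3 had a log2 difference of -5.09 (SE 0.844, edgeR adjusted p = 0.232), and COX2 one of -1.03 (SE 0.386, edgeR adjusted p = 0.584). Behind the COX3 value stand counts of 53 in Gayal 2 and 90 in Gayal 3. There a low level and a failed estimate cannot be told apart. With 1 library left out, the difference of COX3 ran from -6.67 without Gayal 1 to -3.56 without Banna 3, and that of COX1 from -3.12 without Banna 3 to -1.87 without Gayal 1. With limma-voom the adjusted p was 0.0938 for COX1 and 0.0823 for COX3.

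COX1, COX2 and COX3 were also the genes of the group whose Gayal libraries lay below the Banna libraries within batch A and within batch B, 3 of 7, where 15.7% of the tested genes did so. For COX1 the difference in mean log2 CPM was -3.1 in batch A and -1.86 in batch B. The values were -0.96 and -1.16 for COX2 and -3.49 and -6.7 for COX3. With 1 Gayal library in batch A and 1 Banna library in batch B, these are sizes without a test. The -6.7 of COX3 rests on the 53 and 90 counts of Gayal 2 and Gayal 3, which may be failed estimates.

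In the other 4 genes, the Gayal libraries did not all lie below the Banna libraries in both batches. ND1 and ND4 had log2 differences of -0.68 (SE 0.862) and -0.94 (SE 0.565) by species, with edgeR adjusted p of 0.885 and 0.74. The difference of ND4 was negative in 18 of 18 alternative fits. With 1 library left out it ran from -1.76 without Banna 3 to -0.13 without Gayal 1, and it was -2.14 without a batch term. In mean log2 CPM, ND4 differed by -1.7 in batch A and by -0.19 in batch B. ATP6 was at 0.11 (SE 0.426, edgeR adjusted p = 0.97), a difference of 1 SE or less that took the other sign in 4 of 18 alternative fits. CYTB was at 2.32 with an SE of 12.1 (edgeR adjusted p = 0.977), and without Banna 3, the library with 4 counts, the difference was -4.49 (edgeR adjusted p = 0.362). No species direction is read for CYTB.

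By batch, 4 of the 7 genes, COX2, COX3, ND1 and ND4, were lower in B than in A with species in the fit, and 0 were higher. Over all tested genes 6.89% were called lower and 7.73% higher. The median log2 difference by batch was -4.24 for the 7 genes and -0.09 for all tested genes. The log2 difference, B minus A, was -6.69 for COX2 (SE 0.473) and -8.38 for COX3 (SE 0.975), both at an edgeR adjusted p of 0.0145. It was -4.24 for ND1 (SE 0.855, edgeR adjusted p = 0.0284) and -2.54 for ND4 (SE 0.57, edgeR adjusted p = 0.0345). On the CPM scale, COX2 was at 28.4 ± 14.8 in batch B and 3653 ± 1382 in batch A, and COX3 at 31.1 ± 52.4 and 7314 ± 6379 (SD, n = 3). The batch B level of COX3 includes the 53 and 90 counts of Gayal 2 and Gayal 3, which may be failed estimates. ND1 was at 59 ± 29.6 in batch B and 1526 ± 1138 in batch A, and ND4 at 224 ± 64 and 1853 ± 1170 (SD, n = 3).

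The other 3 genes did not pass in edgeR. COX1 had a log2 difference of -1.76 (SE 0.493, edgeR adjusted p = 0.0568), and limma-voom gave it an adjusted p of 0.0264. CYTB had one of -8.04 with an SE of 5.79 (edgeR adjusted p = 0.369), and DESeq2 called it (adjusted p = 0.000119). On simulated counts with known changes by species, 53 of 224 DESeq2 calls were false, against 7 of 147 for edgeR. The edgeR value for CYTB was -1.23 without Banna 3, the library with 4 counts, and -16.37 without Gayal 1. ATP6 had one of -0.63 (SE 0.427, edgeR adjusted p = 0.343), the smallest of the 7.

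**Figure D5:**
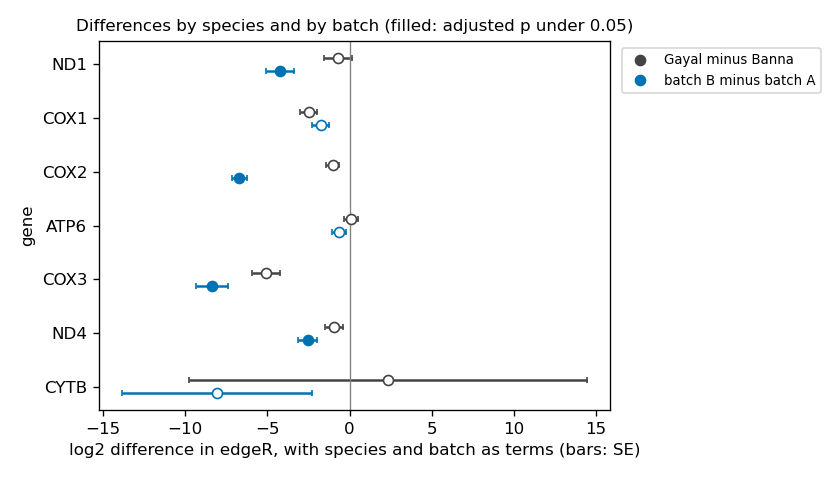
Points are log2 differences from the edgeR fit with species and batch as terms, with bars of 1 SE, for Gayal minus Banna (grey) and batch B minus batch A (blue). Filled points, at an adjusted p under 0.05, are the batch differences of ND1, COX2, COX3 and ND4, and the bars of CYTB are the longest.

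Batch B libraries lay below batch A libraries in CPM for 5 of the 7 genes, ND1, COX2, COX3, ND4 and CYTB, where 22.1% of the tested genes did so in that direction. Within both species at once, batch B was below batch A for these 5 and COX1, 6 of 7, against 28.6% of the tested genes. ATP6 was the exception, with Banna 3 between Banna 2 and Banna 1. The batch calls did not hold in every fit with 1 library left out. The count of 4 was 4 without Banna 1, 2 without Banna 2 (COX2 and COX3), and 0 without Banna 3 or without any 1 of the 3 Gayal libraries. The share of all tested genes called in these fits was not counted, and each has 2 residual degrees of freedom. The lower counts are therefore not read as a trait of the 7 genes. The log2 differences of the 4 called genes stayed negative in all 18 alternative fits, from -7.07 to -6.49 for COX2 and from -3.35 to -1.72 for ND4.

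Whether the species difference changed with batch was tested by an interaction term, which called 0 of 14112 genes and 0 of the 7 in edgeR. At an unadjusted p under 0.05 there were 931 of the tested genes and 3 of the 7, CYTB, COX3 and ND1. For COX3 the interaction was -3.11 on the log2 scale (SE 0.958, edgeR adjusted p = 0.708). The fitted species gap of COX3 was thus the wider one in batch B, a difference that did not pass. In that batch the gap rests on the 53 and 90 counts of Gayal 2 and Gayal 3, which may be failed estimates.

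The 7 genes followed their own sum unevenly over the 6 libraries. Pearson's r between the log2 CPM of a gene and the log2 of the summed CPM was 0.975 for COX1, 0.968 for ND4, 0.952 for COX3, 0.926 for ND1 and 0.913 for COX2. It was 0.595 for CYTB and 0.477 for ATP6. Between single genes it was highest for the complex I pair ND1 and ND4, at 0.988, and lowest for COX1 and ATP6, at 0.333. The 6 points share their batches, and each gene is part of the sum, so these values are descriptions.

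Among 7651 other genes with a mean of at least 5 CPM, 88 had an r of 0.95 or more with the sum. The closest were ENSBTAG00000009307, at 0.993, and ENSBTAG00000014204, also at 0.993. ENSBTAG00000014204 went from 288 CPM in Banna 1 and 255 in Banna 2 to 80.8 in Gayal 2, and ENSBTAG00000009307 only from 50.6 in Banna 1 to 35.7 in Gayal 2. Both kept the order of the sum at a much smaller range. Their names are not paired with the identifiers in the sources used here.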

How the data were processed

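The deposited values are estimated counts per gene and library, made by the authors without normalization for depth. HISAT2 2.0.4 and build ARS-UCD1.2 are named in the submitters' processing notes, while the counting program, the annotation and whether strand was used are not given there or in the labels. Per the labels' protocols, TRIzol RNA of frozen muscle was sequenced as paired ends on an Illumina instrument.

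All 27270 genes entered edgeR 4.0.16 (R 4.3.3). filterByExpr left 14112, TMM factors scaled the totals, and the robust quasi-likelihood test took species and batch as terms (3 residual degrees of freedom). P-values were adjusted by Benjamini-Hochberg over all tested genes, with a threshold of 0.05. The SE is the log2 difference over the square root of F. Shares were compared with two-sided exact permutation tests. Alternatives included other scalings and filters, fits with 1 factor, DESeq2 1.42.0, voom in limma 3.58.1, a block for the replicate number, and each library left out in turn. The step is the spacing, fitted to values up to 60, at whose multiples small counts cluster. On simulated counts for 14112 genes, with 100 genes changed at each size, edgeR called 92% of those changed between the species by a log2 of 4 and 48% of those by 2.

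The rule for naming took all 7 members and the 2 other identifiers most correlated with their sum. Members, lists and designs were chosen with earlier results of these data known. The 10 pathway lists, 128 symbols, and the cell type markers could not be tested, since the sources used here pair no identifier with a symbol. Gene lengths, sequences and coordinates were not used.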

Additional observations from a re-analysis of the deposited data

Results flagged for a closer look

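For 2 of the 7 genes, every Gayal library lay on one side of the Banna libraries in batch A and on the other side in batch B. The share of all tested genes that did so was not counted. With so few libraries in each batch such a pattern can arise easily by chance, so the 2 genes are only described. The mean log2 CPM difference of ATP6 also changed sign, from 0.31 in batch A to -0.04 in batch B, with overlapping libraries in both. CYTB was lower in Gayal 1 than in both Banna libraries of batch A, at 178 CPM against 5397 and 2572, and higher in both Gayal libraries of batch B than in Banna 3, at 88.2 and 63 CPM against 0.0453. The interaction was 15.1 on the log2 scale (SE 1.44) with an edgeR adjusted p of 0.23, and it rests on the 4 counts of Banna 3. ND1 was lower in Gayal 1 than in both Banna libraries of batch A, at 490 CPM against 2743 and 1345. In batch B it was at 42.1 and 93.2 CPM in the Gayal libraries against 41.7 CPM in Banna 3. Its interaction was 2.76 on the log2 scale (SE 1.09, edgeR adjusted p = 0.755). Neither difference passed, and the lower Gayal value of ND1 in batch B was within 1 CPM of the Banna value.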

How the results depend on the processing

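The fit without robust estimation was chosen after seeing the data. The count of genes called by species, 0 higher and 0 lower, was 0 in all 20 alternatives, of which the threshold of 0.01 could only return 0. The 4 genes lower in batch B became 0 at an adjusted p under 0.01, which no tested gene could pass. The smallest edgeR adjusted p by batch over all tested genes was 0.0145. The count was 0 to 4 with a library left out, and 3 to 5 in the other 12 alternatives beside the replicate block. The share of all tested genes called in each alternative was not counted, so these counts are not read as a trait of the 7 genes. With the replicate number as a block in place of the batch term, 0 of the 7 genes were called by species. A separate fit with species, batch and the block called 0 by batch. Only number 2 holds both batches, and few residual degrees of freedom are left, so this 0 says little about the genes. Across genes, the correlation of deviations between libraries of 1 number was 0.253, -0.448 and 0.279 for numbers 1, 2 and 3. Species but not batch was taken out of the deviations, and numbers 1 and 3 each lie within 1 batch. These correlations therefore cannot show whether the numbers pair the samples. The cause of the shifts in the number of genes called was not tested. A fit with 1 library fewer has 2 residual degrees of freedom. The summed share kept its direction in every alternative. Its species difference of -2.75 percentage points was -4.08 to -1.84 with a library left out, -1.27 without COX1 and -4.55 without the 20 most abundant other genes in the total. The ATP6 species difference (log2) was -0.0803 without a batch term, -0.0652 with the block and -0.0921 to 0.396 with a library left out. That of CYTB was -4.60 without a batch term, -3.31 with the block and -4.49 to 10.65 with a library left out, and that of ND1 -2.07 to 0.69. Within the sum, the difference by species was -0.466 to 1.53 points for ND1 and -5.53 to 6.94 for COX2, and by batch -0.555 to 2.5 for ND4, with a library left out. Library totals moved the median of all genes by species from -0.03 to 0.07, and upper-quartile factors by batch from -0.09 to -0.24. CYTB in Banna 3 rests on 4 counts, which are 1 step.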
